A study of Rattus norvegicus with 9 samples.

Results

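Transcripts of 10 genes that make, break down and regulate polyamines were followed in the superior mesenteric artery (SMA) of the rat before and after ischemic injury. The genes were taken by symbol from the deposited table of 37203 genes, and each of the 10 had a row. They are the synthesis enzymes Odc1, Amd1, Srm and Sms, the breakdown enzymes Sat1, Smox and Paox, the antizymes Oaz1 and Oaz2, and the antizyme inhibitor Azin1. SMAs came from 8-week-old Sprague-Dawley (SD) rats in 3 groups of 3, namely Normal, Ischemia 1h and Ischemia 4h. All rats were of the same strain and age, and the labels give no genotype that separates them. Ischemia was produced by bleeding the animal through a femoral artery, so that the artery was sampled during systemic blood loss rather than after a local occlusion. For this model the methods give anaesthesia with sodium pentobarbital and femoral catheters, and no sham operation is described for Normal, so that blood loss, anaesthesia and surgery cannot be told apart. The series text gives 3 rats per group, and each library was treated here as 1 rat, although the wording of the methods leaves unclear whether individuals were shared between conditions. P-values measure only the spread between these samples.

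Polyamines are small, positively charged molecules that bind nucleic acids and are needed for growth and translation. Ornithine decarboxylase (Odc1) makes putrescine, adenosylmethionine decarboxylase (Amd1) makes the aminopropyl donor, and spermidine synthase (Srm) and spermine synthase (Sms) add aminopropyl groups in turn. Spermidine/spermine acetyltransferase (Sat1) tags the longer polyamines for export or oxidation, acetylpolyamine oxidase (Paox) oxidises the tagged forms, and spermine oxidase (Smox) acts on spermine directly and releases hydrogen peroxide. Antizymes bind the Odc1 protein and send it for degradation, and the antizyme inhibitor, an inactive relative of the enzyme, binds antizyme in its place. Much of this control acts on translation and on protein turnover, which counts of RNA do not measure.

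Libraries held 13114273 to 15504240 counts, and values are given as CPM, counts scaled to a common library total, on library sizes scaled by the TMM method, where 1 CPM stood for 12.1 to 17.9 counts. The SMA markers were present throughout: all 10 smooth muscle genes and all 10 endothelial genes had counts in every library. The content of other tissues varied strongly between libraries of 1 group. The summed level of 26 nerve genes ran from 123 to 3844 CPM in Normal, from 2665 to 12331 CPM at 1 h and from 304 to 12067 CPM at 4 h, and Dbh, Slc6a2, Npy, Phox2a and Nefl were at 0 in at least 1 Normal library. In bulk tissue such as this, fewer cells of a type and less RNA per cell cannot be told apart.

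Of the 10 polyamine genes, 0 were called at 1 h against Normal, 0 at 4 h against Normal, 0 at 4 h against 1 h and 0 over the 3 groups together. To be called, a gene needed a fold change over 1.5 and an adjusted p under 0.05 in edgeR's quasi-likelihood test, with Benjamini-Hochberg adjustment over the 15482 genes tested. The same rule called 0.0581%, 0.0904%, 0% and 0.0388% of all genes tested in these comparisons. All 10 genes passed the filter on low counts. At an unadjusted p under 0.05 there was 1 polyamine gene at 1 h (background 16.7%), 1 at 4 h (12.4%), 0 between 4 h and 1 h (2.58%) and 1 over the 3 groups (11.4%), and in each of the 3 comparisons that held a gene this was Azin1. DESeq2 called 1 polyamine gene, Azin1, at 1 h and 0 at 4 h, but it called far more of the whole table, 4.12% of genes (644 of 15622 with an adjusted p) at 1 h and 3.35% (554 of 16526) at 4 h. The median log2 fold change of the 10 genes was 0.06 at 1 h and 0.20 at 4 h, beside -0.01 and 0.03 over all genes tested, with 6 of 10 above 0 each time (49.4% and 52.3% of all genes).

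**Figure D1:**
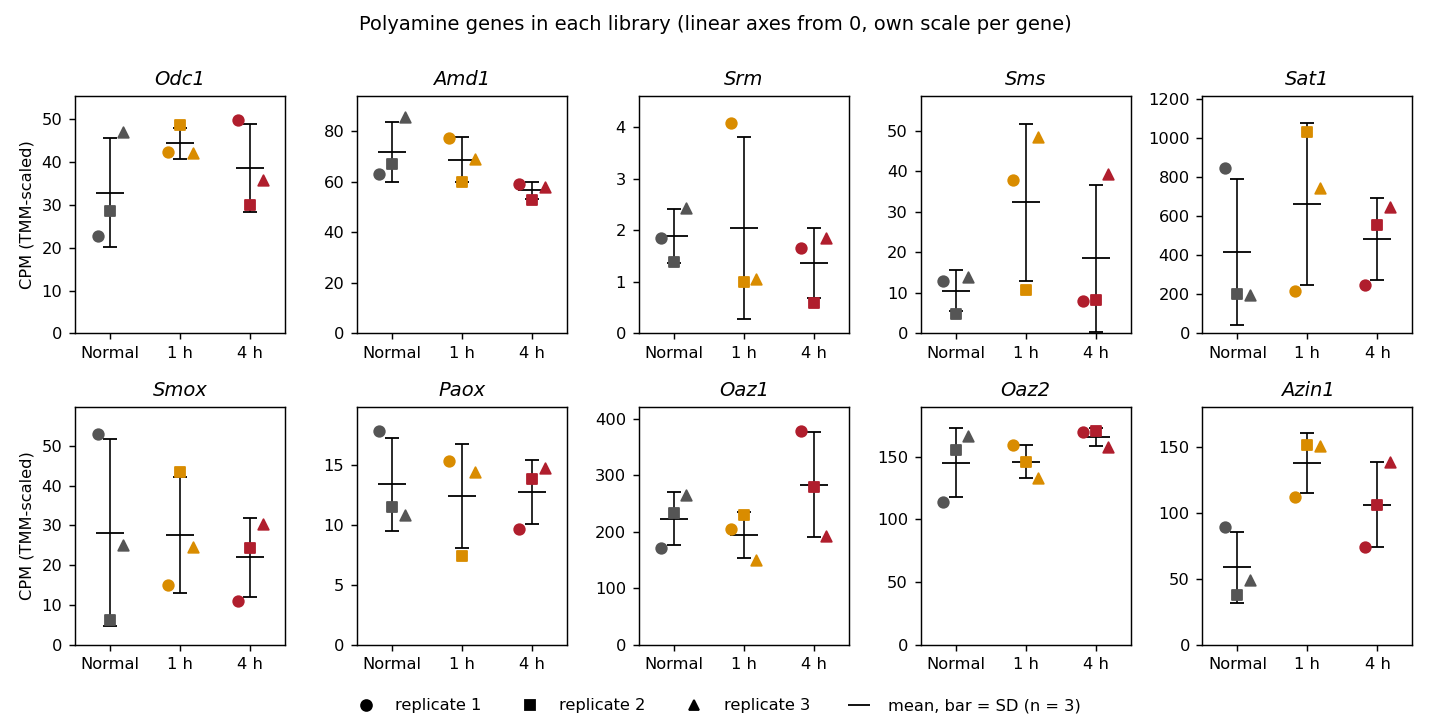
Level of each polyamine gene in CPM (linear axes from 0, a separate scale per gene) in the Normal, 1 h and 4 h groups. Points are single libraries, with their shape giving the replicate, and horizontal lines with bars are the mean and SD of 3 libraries. Azin1 at 1 h lies above all 3 Normal libraries, Amd1 at 4 h lies below all 3, and Sat1, Smox and Sms spread widely within each group.

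Groups that did not overlap were found for 1 polyamine gene at 1 h (Azin1, higher), where 26.3% of all genes tested did not overlap in either direction and 12.8% lay higher. At 4 h against Normal it was again 1 gene (Amd1, lower), beside 18.7% of all genes in either direction and 10.8% lower. Between 4 h and 1 h it was Amd1, lower at 4 h, beside 6.24% of all genes in either direction and 3.04% lower. A count of 1 in 10 is below the share of all genes in both comparisons against Normal, and in the comparison of 4 h with 1 h it rests on a single gene.

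**Figure D2:**
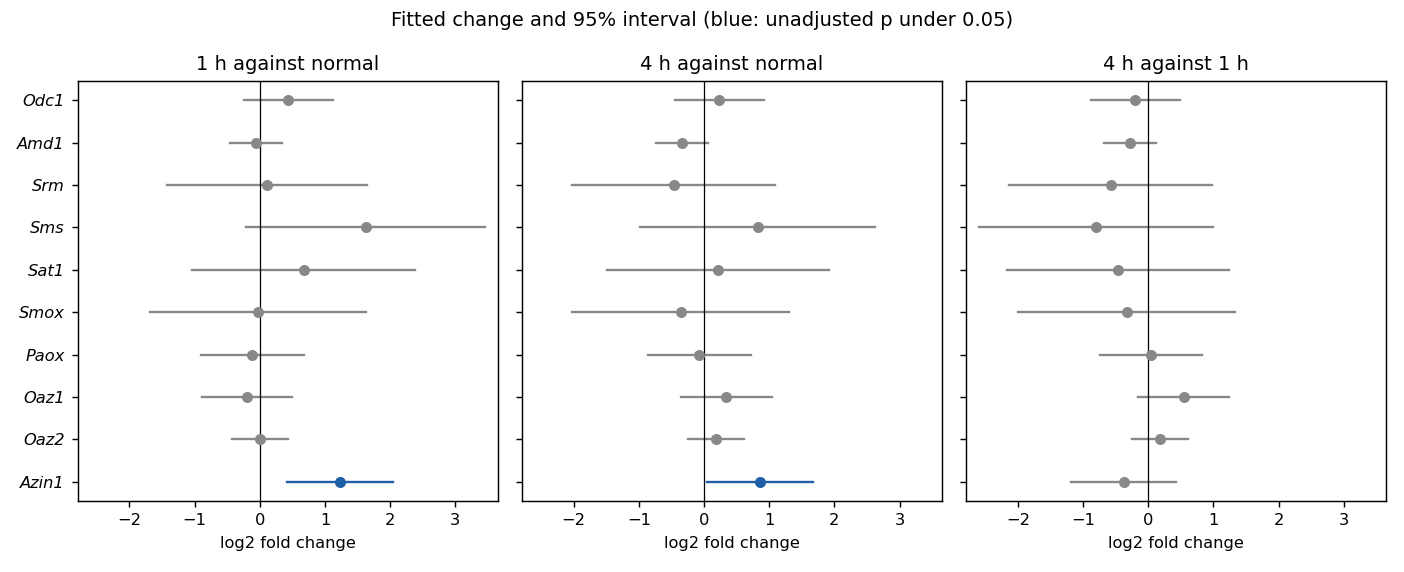
Fitted log2 fold change of the 10 polyamine genes with its 95% interval (horizontal bars) for 1 h against Normal, 4 h against Normal and 4 h against 1 h. Genes with an unadjusted p under 0.05 are blue. Only the interval of Azin1 lies clear of 0, at 1 h (0.41 to 2.05) and at 4 h (0.04 to 1.67), and no gene passed after adjustment.

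Among the synthesis enzymes, 0 of 4 were called in any comparison by edgeR or by DESeq2. Odc1, the first and highly regulated step, stood at 22.8, 28.5 and 47.1 CPM in Normal replicates 1 to 3, at 42.3, 48.7 and 42.1 CPM at 1 h, and at 49.9, 30.0 and 35.9 CPM at 4 h. The libraries at 1 h were close together and above the lower Normal pair, but Normal replicate 3 reached their level. Odc1 had a log2 fold change of 0.44 at 1 h (SE 0.30, edgeR adjusted p = 0.433) and 0.24 at 4 h (SE 0.30, adjusted p = 0.768). Its 95% interval at 1 h, -0.25 to 1.12, leaves room for more than a doubling. With 1 library left out at a time the 1 h value ran from 0.23 without Normal replicate 1 to 0.79 without Normal replicate 3 (adjusted p = 0.417 for the latter).

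Amd1 supplies the aminopropyl donor for both later steps. It was at 62.9, 67.0 and 85.5 CPM in Normal, at 77.5, 59.9 and 69.1 CPM at 1 h, and at 59.2, 52.8 and 57.9 CPM at 4 h. The 4 h libraries were tightly grouped and lay below every Normal and every 1 h library, although the gap to the nearest library of either group was small. At 4 h the log2 fold change was -0.34 (SE 0.17, edgeR adjusted p = 0.467, 95% interval -0.74 to 0.06), and at 1 h it was -0.06 (SE 0.17, adjusted p = 0.866). At 4 h it remained below 0 under every alternative, from -0.49 to -0.20, with an adjusted p between 0.358 and 0.682. The study singled out Amd1 from these same samples, as a gene significantly altered in late ischemia. The values here are therefore no independent evidence of its direction. By Western blot the study also reports lower Amd1 protein in late ischemia. By the rule used here the Amd1 transcript was not called in any comparison, and counts of RNA do not measure the protein. The pseudogene rows Amd1-ps2 and Amd1-ps3 held 0 counts in every library.

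Srm, which makes spermidine, was close to the floor of the assay, with 7 to 61 counts per library. It stood at 1.85, 1.39 and 2.44 CPM in Normal, at 4.08, 1.00 and 1.04 CPM at 1 h, and at 1.65, 0.58 and 1.85 CPM at 4 h. Replicate 1 at 1 h was the highest library and the other two of that group were below all of Normal. The log2 fold change was 0.11 at 1 h (SE 0.67, edgeR adjusted p = 0.941) and -0.47 at 4 h (SE 0.68, adjusted p = 0.803), with intervals that span more than a doubling in both directions. A difference of that size was not detectable at this depth and spread.

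Sms, which makes spermine, had the largest fitted change of the 10 genes at 1 h and one of the widest errors. It was at 12.9, 4.67 and 13.8 CPM in Normal, at 37.9, 10.7 and 48.4 CPM at 1 h, and at 7.94, 8.21 and 39.4 CPM at 4 h. In both ischemia groups the libraries split into high and low ones, with 2 of 3 high at 1 h and 1 of 3 at 4 h, so that each group overlapped Normal. On the log2 scale the fitted change was 1.62 at 1 h (SE 0.80, edgeR adjusted p = 0.322, 95% interval -0.21 to 3.46) and 0.82 at 4 h (SE 0.79, adjusted p = 0.682). The high libraries were replicates 1 and 3 at 1 h and replicate 3 at 4 h. These were the 3 libraries with the highest nerve score, taken over the 26 nerve genes as their mean log2 CPM, at 7.79, 7.98 and 7.89. The remaining 6 libraries had nerve scores between 0.18 and 5.41. Over the 9 libraries, which share the TMM scaling, log2 CPM of Sms and the nerve score had Pearson's r of 0.94 and Spearman's rho of 0.93. Sms also moved with the adipocyte score (r of 0.86, rho of 0.68), the neutrophil score (r of 0.78, rho of 0.78) and the macrophage score (r of 0.63, rho of 0.77). Once the nerve score entered the fit, the 1 h value was 0.15 (SE 0.40, edgeR adjusted p = 0.933) and the 4 h value 0.39 (SE 0.32, adjusted p = 0.604). The nerve score lay higher in all 1 h libraries (5.41 to 7.98) than in all Normal libraries (0.18 to 5.37). Nerve content and ischemia can therefore not be told apart in any 1 h value from this fit, for Sms or for other genes. Without replicate 3 at 4 h, and without the nerve score in the fit, the 4 h value of Sms was -0.37. Whether the Sms transcripts came from these cell types was not tested. A pseudogene row, Sms-ps1, held 15 to 184 counts, equal to 15.6% to 59.4% of those of Sms, and how the counting divided reads between the pair is not given in the sources used here, so the level of Sms is uncertain.

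**Figure D3:**
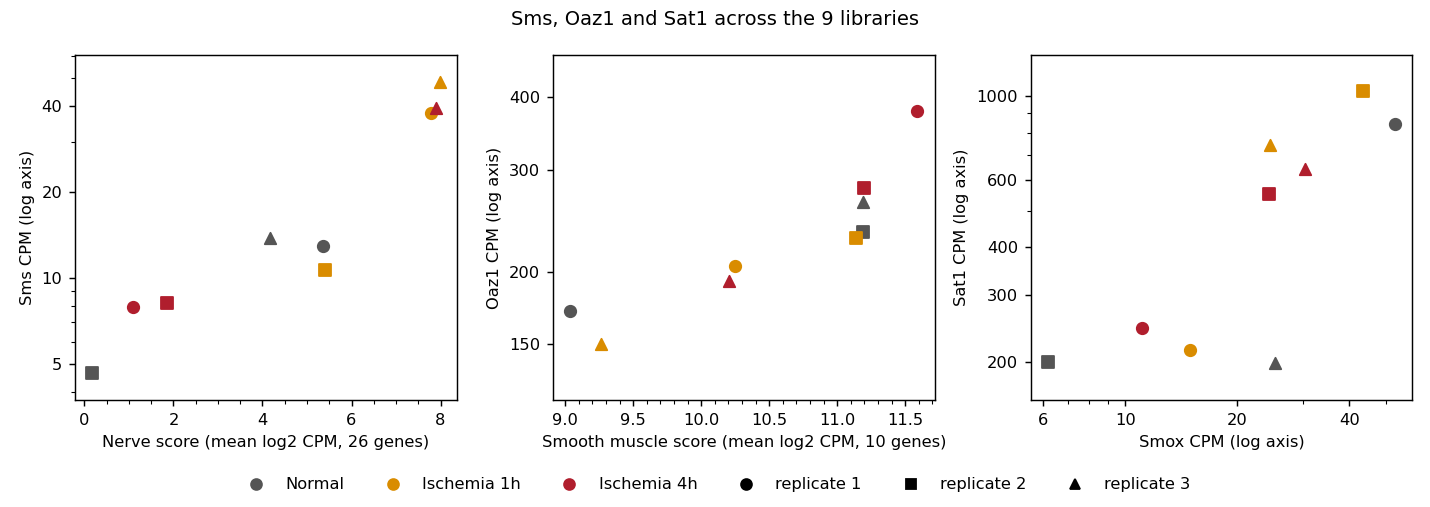
Sms against the nerve score, Oaz1 against the smooth muscle score and Sat1 against Smox, 1 point per library, coloured by group and shaped by replicate. Levels are CPM on log axes and scores are mean log2 CPM of 26 nerve or 10 smooth muscle genes. The 3 libraries with Sms at 37.9 CPM or more are those with a nerve score of 7.79 or more, and Oaz1 is higher where the smooth muscle score is higher.

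Among the breakdown enzymes, 0 of 3 were called in any comparison by edgeR or by DESeq2, with 0 at an unadjusted p under 0.05 in edgeR, and the groups overlapped for all 3. Sat1, which is known as the inducible step of breakdown, was at 845, 200.3 and 198 CPM in Normal, at 215, 1028 and 742 CPM at 1 h, and at 246, 552 and 645 CPM at 4 h. High and low libraries occurred in every group, and Normal replicate 1 was the second highest of the 9. Its fitted log2 fold change was 0.67 at 1 h (SE 0.75, edgeR adjusted p = 0.634, 95% interval -1.04 to 2.38) and 0.21 at 4 h (SE 0.74, adjusted p = 0.929). Single libraries moved the 1 h value both ways, from 0.21 without replicate 2 at 1 h to 1.73 without Normal replicate 1 (adjusted p = 0.286), and with the nerve score in the fit it was 0.33. At 4 h the value without Normal replicate 1 was 1.27 (adjusted p = 0.561).

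Smox, the spermine oxidase, was at 53.0, 6.20 and 25.2 CPM in Normal, at 14.9, 43.5 and 24.5 CPM at 1 h, and at 11.1, 24.3 and 30.4 CPM at 4 h. The Normal group alone spanned the range of all 9 libraries. The log2 fold change was -0.03 at 1 h (SE 0.72, edgeR adjusted p = 0.986) and -0.36 at 4 h (SE 0.73, adjusted p = 0.868), and without Normal replicate 1 these were 0.81 and 0.48. Smox and Sat1 were both high in Normal replicate 1 and in replicate 2 at 1 h. Over the 9 libraries their log2 CPM had r of 0.80 and rho of 0.68, a description that mixes groups and shares the scaling. Sat1 and Azin1 had r of 0.76 and rho of 0.75, with the same 9 libraries behind it. Of the cell type scores, that of macrophages had the largest r with Smox, 0.72 (rho of 0.72). The part of tissue content in the Smox values was not tested.

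Paox, which oxidises acetylated polyamines in the peroxisome, was at 17.9, 11.5 and 10.9 CPM in Normal, at 15.3, 7.42 and 14.4 CPM at 1 h, and at 9.67, 13.8 and 14.7 CPM at 4 h. It was the steadiest of the breakdown enzymes, with group means of 13.4, 12.4 and 12.7 CPM that differ by less than the SD of any group (3.88, 4.33 and 2.70 CPM, n = 3 each). On the log2 scale the fitted change was -0.11 at 1 h (SE 0.34, edgeR adjusted p = 0.877) and -0.07 at 4 h (SE 0.34, adjusted p = 0.951), with 95% intervals of -0.90 to 0.67 and -0.86 to 0.71. Paox ran against the smooth muscle score, with r of -0.75 and rho of -0.72, and the part of tissue content was not tested.

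Of the 3 regulators of the Odc1 protein, 0 were called by edgeR, and 1, Azin1, by DESeq2 at 1 h, where DESeq2 called 4.12% of all genes. Azin1 was at 89.2, 37.9 and 49.2 CPM in Normal, at 112, 151 and 151 CPM at 1 h, and at 74.4, 106 and 139 CPM at 4 h. All 3 libraries at 1 h lay above all 3 Normal libraries. At 4 h 2 of 3 did, and replicate 1 lay between the Normal values. The means were 58.8 ± 27.0, 138 ± 22.8 and 106 ± 32.1 CPM (SD, n = 3 each). The log2 fold change at 1 h was 1.23 (SE 0.36, unadjusted p = 0.00821, edgeR adjusted p = 0.227), a fitted ratio of 2.35. At 4 h it was 0.86 (SE 0.35, unadjusted p = 0.0411, adjusted p = 0.377), a ratio of 1.81. DESeq2 gave 1.26 at 1 h (adjusted p = 0.0386) and 0.88 at 4 h (adjusted p = 0.250). Over all 16 alternatives the 1 h value stayed between 0.85 and 1.66, with an adjusted p from 0.0386 to 0.597, and in each of the 9 fits that left out 1 library its unadjusted p was under 0.05. At 4 h the value ran from 0.62 to 1.29 over the same 9 fits, and the unadjusted p was under 0.05 in 4 of them, with a highest p of 0.134 in edgeR. It was also over 0.05 at 4 h with library size only (0.174), with the replicate block (0.0760) and with only the groups compared (0.0705).

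Scores of other cell types moved with Azin1. Its log2 CPM over the 9 libraries had r of 0.78 and rho of 0.82 with the neutrophil score, r of 0.72 and rho of 0.82 with the nerve score, and r of 0.70 and rho of 0.70 with the adipocyte score. The summed level of the 8 neutrophil genes, 3 of which passed the filter, was 6.43 to 13.0 CPM in Normal, 18.7 to 82.3 CPM at 1 h and 3.80 to 52.4 CPM at 4 h, with S100a8, S100a9, Mmp8, Cxcr2 and Ngp at 0 in at least 1 Normal library. Most of this sum was Lcn2, which other cells also induce, at 5.91 to 9.91 CPM in Normal, up to 77.8 CPM at 1 h and 2.81 to 47.7 CPM at 4 h. S100a8, S100a9, Mmp8, Cxcr2 and Ngp were each under 1 CPM in every library. The 10 adipocyte genes summed to 725 to 2777 CPM in Normal, 1403 to 2616 CPM at 1 h and 1030 to 1662 CPM at 4 h, with Lep and Ucp1 at 0 in at least 1 Normal library. The part of adipocytes in the Azin1 values was not tested. In a fit that held the nerve score, Azin1 was at 0.85 at 1 h (SE 0.32, edgeR adjusted p = 0.449) and at 0.84 at 4 h (SE 0.27, adjusted p = 0.188).

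**Figure D4:**
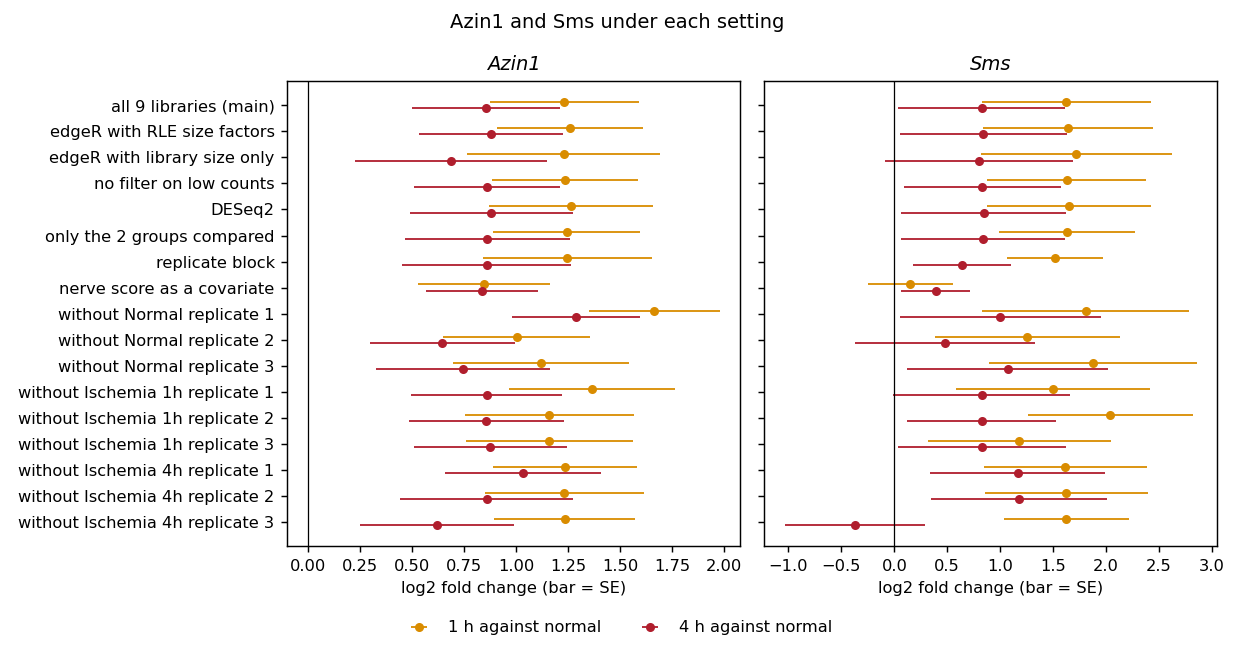
Log2 fold change of Azin1 and Sms at 1 h and at 4 h against Normal (points, bars are SE) in the fit to all 9 libraries and under 16 alternatives. Azin1 stayed above 0 throughout, whereas Sms stood at 0.15 at 1 h when the nerve score was a covariate and at -0.37 at 4 h without replicate 3 of that group.

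Oaz1, the main antizyme, was at 171, 234 and 264 CPM in Normal, at 204, 229 and 150.2 CPM at 1 h, and at 379, 279 and 193 CPM at 4 h. Replicates 1 and 2 at 4 h were the highest libraries and replicate 3 lay within the Normal range. Its fitted log2 fold change was -0.20 at 1 h (SE 0.30, edgeR adjusted p = 0.741) and 0.34 at 4 h (SE 0.30, adjusted p = 0.655). Oaz1 followed the smooth muscle score across the 9 libraries (r of 0.89, rho of 0.98). Every other cell type score ran the other way, from r of -0.81 for macrophages to -0.56 for endothelium. The summed level of the 10 smooth muscle genes ran from 11445 to 50329 CPM in Normal, from 13127 to 47965 CPM at 1 h and from 24940 to 69706 CPM at 4 h, and its part in the Oaz1 values was not tested. The pseudogene row Oaz1-ps held 0 or 1 count.

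Oaz2, the second antizyme, varied least of the regulators, from 114 to 170.1 CPM over all 9 libraries. It was at 114, 155 and 166 CPM in Normal, at 159, 146 and 133 CPM at 1 h, and at 169, 170.1 and 157 CPM at 4 h. Its log2 fold change was 0.01 at 1 h (SE 0.19, edgeR adjusted p = 0.986, 95% interval -0.42 to 0.44) and 0.19 at 4 h (SE 0.19, adjusted p = 0.690, interval -0.24 to 0.62). It also followed the smooth muscle score, with r of 0.84 and rho of 0.85. Every other score ran the other way, from r of -0.81 for lymphocytes to -0.34 for neutrophils.

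Because the inhibitor protein binds antizyme in place of the Odc1 protein, ratios of RNA counts to those of Oaz1 within a library were also taken. They are a description with no test, and counts of RNA do not show binding between proteins. Gene length was not used, so only the movement of a ratio between libraries can be read. Azin1 counts per Oaz1 count were 0.521, 0.162 and 0.186 in Normal, 0.547, 0.662 and 1.00 at 1 h, and 0.196, 0.381 and 0.719 at 4 h. The 1 h libraries lay above Normal, with replicate 1 at 1 h only just above Normal replicate 1, and the 4 h libraries overlapped both. Odc1 counts per Oaz1 count were 0.133, 0.122 and 0.178 in Normal, 0.207, 0.213 and 0.281 at 1 h, and 0.132, 0.108 and 0.186 at 4 h. All 3 libraries at 1 h had a higher value of this ratio than the other 6, while the 4 h libraries were spread over the Normal range and slightly beyond it at both ends. No share over other pairs of genes was taken, so nothing particular to these 2 ratios is read from their separation at 1 h. Among single genes, 26.3% of those tested did not overlap between 1 h and Normal, while Odc1 and Oaz1 each did overlap. Oaz1 followed the smooth muscle score (r of 0.89), and the part of tissue content in both ratios was not tested.

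Between 4 h and 1 h, 0 of 10 polyamine genes were called by edgeR or by DESeq2, beside 0% of all genes tested, and the lowest adjusted p was 0.856. Of the 10 genes, 3 had a fitted change above 0 and 7 below, while 46.4% of all genes were above 0. The 4 synthesis enzymes were among those below, from -0.80 for Sms to -0.20 for Odc1. Sms was at 0.24 with the nerve score in the fit, and Srm was at 0.41 without replicate 1 at 1 h. The largest change above 0 was that of Oaz1, 0.54 (SE 0.30, edgeR adjusted p = 0.856), and Azin1 was at -0.38 (SE 0.35, adjusted p = 0.856). Amd1, the gene without overlap, had a log2 fold change of -0.28 (SE 0.17, 95% interval -0.68 to 0.12). The median of the 10 genes was -0.31 beside -0.04 for all genes tested. With library size alone as the scaling, the median of all genes moved to -0.24 in this comparison and to -0.15 at 4 h against Normal.

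Myc, a transcription factor whose E-box sites are known in polyamine genes, was among the genes around the pathway described next, so the promoters of the 10 genes were searched for its motif and for 3 others. RefSeq sequences of assembly GRCr8, from 250 bases before to 50 after each start, were found for 9 genes and not for Azin1. The E-box letters CACGTG, the same on both strands, occurred in 2 of 9 (Srm and Oaz1), beside 6.42% of 33469 promoters. The core of the hypoxia element, ACGTG on either strand, occurred in 4 of 9 (Odc1, Srm, Paox and Oaz1) beside 19.3%, and in Srm and Oaz1 it overlaps the E-box. The cyclic AMP element core TGACG was found in 5 of 9 (Odc1, Amd1, Sms, Sat1 and Oaz1) beside 21.2%, and TATAAA in 2 of 9 (Amd1 and Oaz1) beside 14.2%. Stretches of 60 bases are shown for both E-box genes and for Odc1, the first enzyme, which has ACGTG but no E-box in this window. Capitals mark the motif, which starts 173, 234 and 44 bases before the gene start, and the lines give chr5:164308802-164308861 (+), chr7:9537181-9537240 (-) and chr6:46058605-46058664 (+), each written 5′ to 3′ on the gene's strand.
Srm: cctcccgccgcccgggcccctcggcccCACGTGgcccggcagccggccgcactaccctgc
Oaz1: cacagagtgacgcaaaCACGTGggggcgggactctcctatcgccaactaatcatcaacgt
Odc1: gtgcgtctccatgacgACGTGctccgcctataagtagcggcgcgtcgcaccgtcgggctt
These matches are letters in a window and were not tested for binding. The shares are over all promoters, while the 9 genes searched all passed the filter on low counts. The sets are therefore unlike, and no excess of a motif is read from these counts. Sequence outside this window was not searched, so a gene without the E-box letters here may hold them elsewhere. Neither E-box gene was called in any comparison, with log2 fold changes at 1 h of 0.11 for Srm, which was close to the floor, and -0.20 for Oaz1. Whether Myc acts on any of these genes was not tested.

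Around the pathway, 43 genes for precursor supply, the methyl donor and its salvage, hypusine (the spermidine-derived amino acid of the translation factor eIF5A), transport, relatives of the enzymes, and Myc with its partners were also read. Of these, 35 passed the filter. By edgeR 0 were called at 1 h and 0 at 4 h against Normal, and DESeq2 called 2 at 1 h (Slc7a1 and Mat2b) and 2 at 4 h (Slc18b1 and Slc22a3), beside 4.12% and 3.35% of all genes. At an unadjusted p under 0.05 there were 9 of 35 at 1 h, 4 higher and 5 lower, beside 7.98% higher and 8.67% lower of all genes. At 4 h there were 7 of 35, 1 higher and 6 lower, beside 5.07% and 7.35%. Groups did not overlap for 13 of 35 at 1 h (26.3% of all genes) and for 8 of 35 at 4 h (18.7%). These lists were chosen with earlier results known, and nothing particular to them is read from these counts.

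Slc7a1, the main importer of the arginine and ornithine from which polyamines are made, was at 8.68, 13.5 and 13.7 CPM in Normal, at 38.7, 45.9 and 46.1 CPM at 1 h, and at 21.6, 15.4 and 43.8 CPM at 4 h. All ischemia libraries lay above all Normal libraries. The log2 fold change was 1.87 at 1 h (SE 0.39, edgeR adjusted p = 0.159) and 1.17 at 4 h (SE 0.38, adjusted p = 0.265), and DESeq2 gave an adjusted p of 0.00153 at 1 h. In the fit with a nerve term the edgeR values were 1.52 (adjusted p = 0.328) and 1.03 (adjusted p = 0.206). Arg1, an arginase that makes ornithine, had a log2 fold change of -1.33 at 4 h (SE 0.54, edgeR adjusted p = 0.366), at levels under 2 CPM in every library.

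Mat2b, the regulatory subunit of the enzyme that makes the methyl donor S-adenosylmethionine, was at 57.6, 63.8 and 70.2 CPM in Normal, at 37.5, 37.3 and 37.7 CPM at 1 h, and at 52.3, 48.1 and 39.7 CPM at 4 h. No ischemia library reached the lowest Normal one. On the log2 scale the fitted change was -0.77 at 1 h (SE 0.16, edgeR adjusted p = 0.159, DESeq2 adjusted p = 0.00747) and -0.45 at 4 h (SE 0.16, edgeR adjusted p = 0.296). It was 1 of 10 genes of the methyl donor and salvage list at an unadjusted p under 0.05 in either comparison. Mat2a, the catalytic subunit, was not among them.

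Myc itself was at 28.2, 19.3 and 10.5 CPM in Normal, at 22.1, 88.7 and 72.9 CPM at 1 h, and at 15.6, 23.0 and 38.2 CPM at 4 h. At 1 h 2 of 3 libraries stood above Normal and replicate 1 within it. Its fitted log2 fold change was 1.66 at 1 h (SE 0.58, edgeR adjusted p = 0.261) and 0.41 at 4 h (SE 0.57, adjusted p = 0.793). Its antagonists, which bind the same partner Max, had values below 0. Mxi1 was at -0.70 at 1 h (SE 0.25, edgeR adjusted p = 0.267), Mnt at -0.44 at 1 h (adjusted p = 0.285) and -0.64 at 4 h (adjusted p = 0.194), and Mxd1 at -0.63 at 4 h (adjusted p = 0.303). All 3 libraries at 4 h lay below all 3 Normal libraries for Mxd1, Mxi1 and Mnt alike, as they did for 10.8% of all genes tested.

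Among the transporters, Slc18b1, which carries polyamines into vesicles, had a log2 fold change of -0.49 at 1 h (SE 0.21, edgeR adjusted p = 0.296) and -0.87 at 4 h (SE 0.21, adjusted p = 0.161, DESeq2 adjusted p = 0.0145). Slc22a3, an organic cation transporter that also takes polyamines, was at -1.18 at 4 h (SE 0.33, edgeR adjusted p = 0.207, DESeq2 adjusted p = 0.0463). Sat2, a relative of Sat1, was at -1.06 at 1 h (SE 0.34, edgeR adjusted p = 0.237), with all 3 libraries below Normal. Azin2, the second antizyme inhibitor, was at 1.39 at 1 h (SE 0.60, edgeR adjusted p = 0.297) and 0.66 at 4 h (SE 0.59, adjusted p = 0.665). All 3 of its 1 h libraries lay above Normal, as they did for 12.8% of all genes tested. Eif5a2, 1 of the 2 genes of the hypusine-bearing factor, was at 1.09 at 1 h (SE 0.46, edgeR adjusted p = 0.295). In the fit with a nerve term its 1 h value was 0.28 (adjusted p = 0.794), and that of Sat2 was -0.63 (adjusted p = 0.517).

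**Figure D5:**
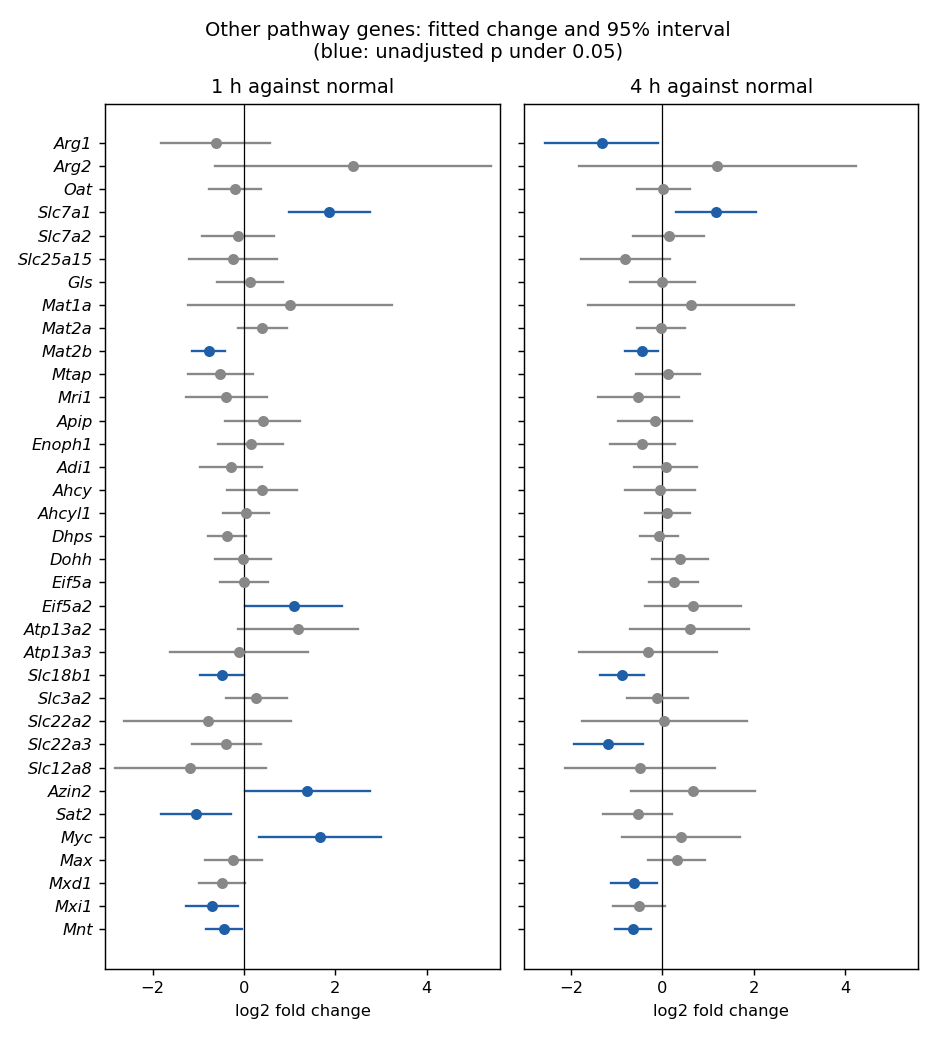
Fitted log2 fold change with its 95% interval for the 35 tested genes around the pathway, at 1 h and at 4 h against Normal, with an unadjusted p under 0.05 in blue. Slc7a1 lies above 0 and Mat2b below 0 at both times, and no gene passed after adjustment.

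For 4 of the enzymes, the genes with the most similar pattern over the 9 libraries were sought among 10438 genes with a mean of at least 5 CPM. Pearson correlations of log2 CPM, which mix group and tissue content, put Golt1b (0.93), Dda1 (0.92) and Copb2 (0.91) nearest to Odc1, and Hs1bp3 (0.91), Mthfd1 (0.91) and Cinp (0.89) nearest to Amd1. Sat1 was closest to Abca6, Tdo2 and Fgl2 (each 0.98), and Smox to Wnt6 (0.96), Gas2l3 (0.96) and Etv1 (0.96). These values are the highest of many and are a description only.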

How the data were processed

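The authors deposited raw counts per gene symbol, 1 column per library, from RNA sequencing of SMAs. The submitters' processing notes name HISAT2. The counting program, genome build, annotation and strand setting are not given in the sources used here, and the study's methods describe microarrays for these samples. In R 4.3.3, edgeR 4.0.16 (filterByExpr, TMM, then glmQLFit with glmQLFTest) took in the 9 libraries together, with group as the single term, leaving 15482 genes of 37203. P-values were Benjamini-Hochberg adjusted over these genes. Errors are SD over 3 libraries, or SE of the log2 fold change. DESeq2 1.42.0, other scalings, no filter, 2 groups only, a replicate block, a nerve score covariate and leaving out each library were alternatives. Scores are mean log2 CPM with a prior count of 2. The script was tested on simulated counts with 200 genes changed at 1 h. It called 0% of these genes at a fold change of 2, 30% at 4 and 61.5% at 8. A gene not called is thus not shown to be unchanged. No 2 libraries were copies (lowest chi-square per degree of freedom 29.9). Named genes were all 10 members, up to 8 other pathway genes per contrast with the smallest p under 0.05, and 3 similar genes for 4 members. Azin2 was named in addition, as the second antizyme inhibitor. The members and lists were chosen with earlier results of these data known.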

Additional observations from a re-analysis of the deposited data

How the results depend on the processing

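The biological coefficient of variation was 51.6%, and with 3 libraries a group only large differences could pass. In the 9 edgeR fits that each left out 1 library, 0 polyamine genes were called in any comparison (0 to 2 at an unadjusted p under 0.05) and 0 other pathway genes against Normal (4 to 11 at 1 h, 4 to 8 at 4 h). DESeq2 called 1 polyamine gene at 1 h, and 2 other pathway genes at 1 h and 2 at 4 h, with 644 and 554 calls over all genes beside 9 and 14 in edgeR; the cause was not tested. Of 480 alternative values for the 10 genes in 3 comparisons, 34 changed sign. Of the 30 values in the main fit, 17 changed sign under at least 1 alternative. With the nerve score those that changed sign were Srm (-0.40) and Oaz1 (0.19) at 1 h, and Sms (0.24) and Smox (0.20) between 4 h and 1 h. Smox at 1 h was 0.0015 with RLE factors and 0.0068 with DESeq2. With library size only, Paox was -0.16 and Oaz2 -0.019 between 4 h and 1 h. With the replicate block Srm at 1 h was -0.096, and 0 polyamine genes were called. Whether replicate numbers pair the samples is not given by the labels. The deviations of same-numbered libraries from their group means had r from -0.651 to 0.660, over 0.1 in 4 of 9 pairs. Pairs with unlike numbers had r from -0.712 to 0.648, over 0.1 in 6 of 18. The block moved the calls over all genes from 9 to 7 at 1 h and from 14 to 7 at 4 h.

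Leaving out 1 library at a time turned the sign of other values. At 1 h the ranges were -0.15 to 0.083 for Amd1, -0.88 to 0.44 for Srm, -0.52 to 0.81 for Smox, -0.29 to 0.15 for Paox and -0.14 to 0.12 for Oaz2. At 4 h they were -0.020 to 0.59 for Odc1, -0.37 to 1.18 for Sms, -0.12 to 1.27 for Sat1, -0.80 to 0.48 for Smox and -0.20 to 0.19 for Paox. Between 4 h and 1 h they were -0.90 to 0.41 for Srm, -0.88 to 0.010 for Sat1, -0.64 to 0.16 for Smox and -0.22 to 0.22 for Paox.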
